A study of Mus musculus with 16 samples.

Results

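The major urinary proteins (Mup) are small secreted lipocalins, described here over liver and both brown and white adipose tissue (BAT, WAT) of mice kept at room temperature or exposed to cold. The members were Mup1, Mup2, Mup3, Mup4 and Mup5, chosen by the large fall of Mup signals between room temperature and cold BAT arrays. All probes of these genes were sought among 46643 probes, of which 25349 carried a gene symbol for 16773 genes, and 3 of the 5 genes had a probe. The platform annotation named 1 probe for Mup2 and 1 for Mup3. The probe of Mup4 had no symbol in that annotation and was named by matching an entry of the study's own liver list to the deposited values within 1e-04, which fitted 1 probe only. No probe was named Mup1 or Mup5, and neither gene was analysed here. The study's list calls the Mup2 probe Mup1, so its signal may hold that of close relatives of Mup2.

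The study describes the mice as female C57BL/6, housed singly, with no age given in the sources used here. The room temperature group was kept at 22°C for 72 h and the cold group at 22°C for 48 h and then at 8°C for 24 h. There were 16 arrays of samples handled separately, 3 for each temperature of BAT and of WAT and 2 for each temperature of liver, and no transgene or drug was used. The 3 tissues were taken from each animal, so arrays of different tissues can share a mouse, which was not modelled. Values are deposited signals on a linear scale, with the background already subtracted, or their normalized log2 values, and a probe is called detected at a detection score of at least 0.95.

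The tissue labels of WAT and liver did not follow their defining markers. Arrays labelled WAT carried hepatocyte markers, with summed signals of 82330 to 88822 at room temperature and 78789 to 90188 in the cold over 12 markers, and had Adipoq signals of 12.9 to 65.7. Arrays labelled liver carried adipocyte markers (sum 39869 to 61887 over 10 markers, beside 5481 to 11271 on labelled WAT), and their hepatocyte sum was 48076 to 75522 at room temperature but 199 to 1537 in the cold. BAT arrays carried brown adipocyte markers (sum 63872 to 83910), and their skeletal muscle sum was 42883 to 61982 at room temperature and 31590 to 45357 in the cold. Albumin cannot serve as a check, since its probe reached the detection score on 1 of the 16 arrays, cold array 2 of the WAT label. The Fgg probe reached it on none. Both stay among the 12 hepatocyte markers, so every count and median over the 12 includes these probes near background. These arrays are therefore called labelled WAT and labelled liver throughout. Since the samples are bulk RNA, fewer cells of a type and less RNA per cell cannot be told apart.

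Major urinary proteins are made mainly in the mouse liver, pass through the blood into urine and carry pheromones in a barrel-shaped pocket. Hepatic Mup transcription is known to respond to growth hormone pulses, androgens, glucocorticoids and nutrition. Some family members, Mup4 and Mup5 among them, have been described in lachrymal, nasal or salivary glands. The family lies in a dense cluster of near-identical genes on chromosome 4, where RefSeq lists 22 Mup genes, so a probe can pick up RNA of several.

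Promoter windows, 250 bases before to 50 bases after the annotated start, show how alike the 3 measured genes are. They were read 5′ to 3′ from RefSeq (GRCm38.p6, minus strand, chromosome 4), at chr4:60139807-60140106 for Mup2, chr4:62087268-62087567 for Mup3 and chr4:59960618-59960917 for Mup4. Capitals mark the TATATAA motif.
Mup2: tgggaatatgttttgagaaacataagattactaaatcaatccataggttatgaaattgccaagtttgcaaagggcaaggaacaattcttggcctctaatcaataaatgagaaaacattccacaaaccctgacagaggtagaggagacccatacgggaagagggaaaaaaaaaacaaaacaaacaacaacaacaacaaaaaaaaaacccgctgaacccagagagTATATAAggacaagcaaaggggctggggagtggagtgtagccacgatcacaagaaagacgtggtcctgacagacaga
Mup3: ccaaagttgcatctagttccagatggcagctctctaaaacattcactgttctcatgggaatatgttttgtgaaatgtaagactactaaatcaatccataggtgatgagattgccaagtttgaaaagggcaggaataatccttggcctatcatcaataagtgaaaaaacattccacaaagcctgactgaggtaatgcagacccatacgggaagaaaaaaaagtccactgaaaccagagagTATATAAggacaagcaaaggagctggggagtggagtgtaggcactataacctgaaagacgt
Mup4: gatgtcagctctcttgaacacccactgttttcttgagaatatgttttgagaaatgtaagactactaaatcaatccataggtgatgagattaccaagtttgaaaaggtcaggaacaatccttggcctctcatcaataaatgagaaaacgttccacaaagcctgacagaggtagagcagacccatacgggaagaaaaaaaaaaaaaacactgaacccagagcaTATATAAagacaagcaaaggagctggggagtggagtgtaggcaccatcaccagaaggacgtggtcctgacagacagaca
Local alignment gave 76.8% identity between the Mup2 and Mup3 windows over 284 columns, 81.0% between Mup2 and Mup4 over 300 columns and 88.3% between Mup3 and Mup4 over 282 columns. All 3 windows share the 20-base run tactaaatcaatccataggt, which 12 of the 14 Mup windows given by RefSeq contain. The motif TATATAA, searched on both strands, begins 27 bases before the start in Mup2, 11 bases before it in Mup3 and 29 bases before it in Mup4. It was found in 13 of the 14 Mup windows and in 3.24% of all 32851 promoter windows. The motif TTCNNNGAA, the core bound by STAT5, was found in none of the 14 Mup windows on either strand and in 8.3% of all windows, which says only that these letters are not in this stretch.

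In BAT the Mup2 and Mup3 signals were high or moderate at room temperature and far lower after 24 h of cold. Mup2 encodes a liver-secreted urinary protein. Its BAT signals at room temperature were 8780, 7620 and 12590 on arrays 1, 2 and 3, and in the cold they were 228, 587 and 1069. The groups did not overlap, and the lowest room temperature signal was above the highest cold signal. The fitted log2 difference, cold minus room temperature, was -4.18 (SE 0.58), a fold of 18.1, or 15.4 from the mean signals. This difference ranked 2 from the lowest of 39730 probes.

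Mup3, another urinary lipocalin of the cluster, followed the same order in BAT at a lower signal. Its room temperature signals were 901, 497 and 1066, and its cold signals were 26.7, 63.9 and 78.8. The groups again did not overlap. The log2 difference was -3.55 (SE 0.54), a fold of 11.7, which ranked 6 from the lowest. The BAT contrast chose the members, so these differences are given as a description with no test; over all probes 0.34% passed the test as lower in BAT and 8.05% had every cold array below every room temperature array. The 135 probes behind the first share became 34 and 44 without room temperature array 1 or 3 of BAT, 41, 86 and 45 without its cold array 1, 2 or 3, and 87 without room temperature array 2 of the WAT label.

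Mup4 was at background in BAT. Its signals were 8.1, -2.5 and 2 at room temperature, against -6.6, -9.9 and 0.7 in the cold, and no array reached the detection score. No fold can therefore be given for Mup4 in BAT, and a fall there could not have been measured.

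**Figure D1:**
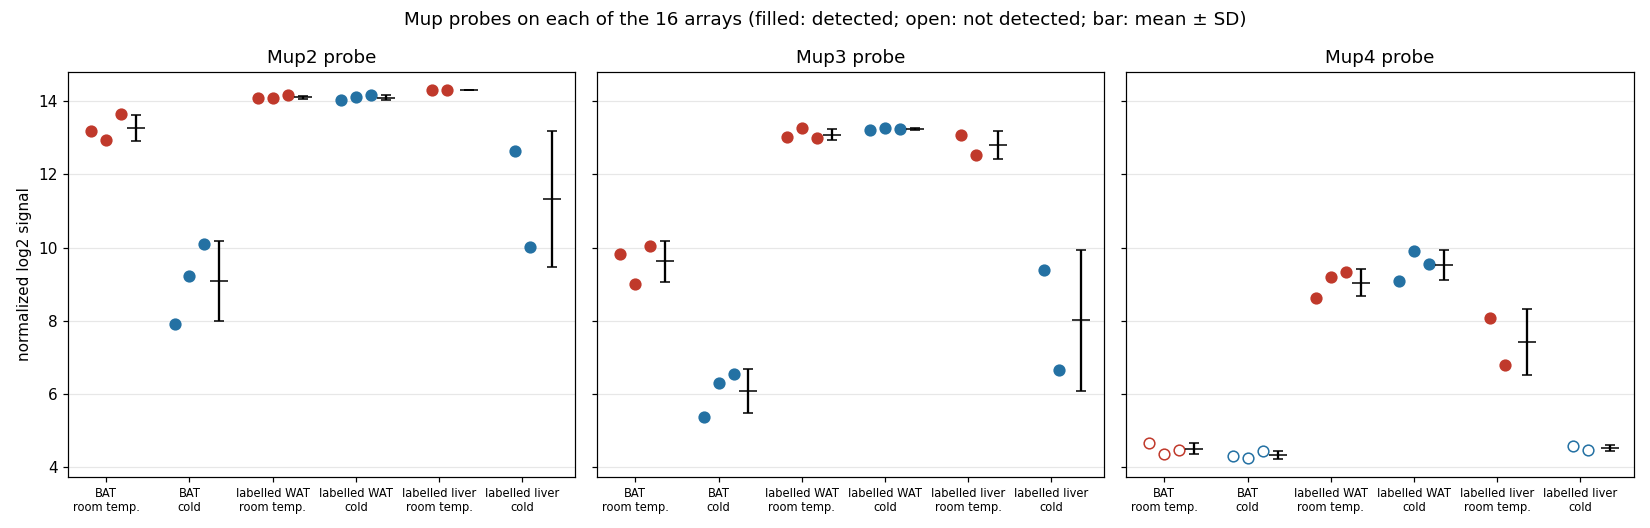
Normalized log2 signal of the Mup2, Mup3 and Mup4 probes (vertical axis) on every array in 6 groups, with filled points for detected and open points for undetected arrays and a bar for the group mean ± SD. The BAT cold points of Mup2 lie between 7.93 and 10.10, below the room temperature points between 12.95 and 13.66, whereas labelled WAT points stay between 14.04 and 14.16.

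On the arrays labelled WAT no Mup probe passed the test for a cold difference, and 0.0705% of all probes did (28 probes, and 2464 at an unadjusted p under 0.05). The 28 became 11 to 17 without any 1 room temperature array of BAT or its cold array 1 or 2, 18 without room temperature array 1 of the WAT label, 43 and 62 without cold array 1 or 2 of that label, and 0 without the BAT arrays or with only these 6 arrays fitted. Mup2 signals were 17155, 18521 and 19742 at room temperature, against 18048, 17454 and 19948 in the cold. The groups overlapped throughout. The log2 difference was -0.01 (95% confidence interval -1.27 to 1.26, adjusted p = 1.00, limma with Benjamini-Hochberg adjustment). These signals were 81.4% to 97.2% of the highest signal on each array, near the top of the scale, where differences can be compressed.

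Mup3, which is further from the top of the scale, gave signals of 7839, 9693 and 8436 at room temperature, against 9405, 10305 and 10101 in the cold on these arrays. Room temperature array 2 was above cold array 1, so the groups overlapped. The log2 difference was 0.14 (95% confidence interval -1.03 to 1.32, limma adjusted p = 1.00). Mup4 was detected on all 6 arrays of this label, with signals of 380, 577 and 628 at room temperature, against 528, 948 and 738 in the cold. Its groups overlapped as well. Its log2 difference was 0.47 (95% confidence interval -0.16 to 1.10, limma adjusted p = 0.885). The intervals for Mup2 and Mup3 reach beyond a 2-fold change in either direction.

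On the arrays labelled liver both tested members were lower in the cold, where 1.8% of all probes passed as lower. Mup2 signals were 22388 and 20116 at room temperature, against 6518 and 1017 in the cold. All cold values were below all room temperature values, which held for 18.7% of all probes, but the 2 cold arrays differed widely from each other. Cold array 2, the lower, also had a brown adipocyte marker sum of 29611, beside 3096 on cold array 1 and 1557 to 2418 at room temperature. Its skeletal muscle sum was 17098, beside 848 on cold array 1 and 851 to 1335 at room temperature. The part of these cell types in the Mup differences was not tested. The log2 difference was -2.97 (SE 0.71), a 7.83-fold fall (limma adjusted p = 0.0494). Mup2 was the brightest probe on both room temperature arrays, so normalization gave them the same log2 value of 14.30, and the fold may be compressed at the top of the scale. This call was close to the threshold and ended when any 1 of 13 of the 16 arrays was left out, with adjusted p from 0.0579 to 0.265; only omission of cold arrays 1 and 3 of BAT or cold array 1 of the liver label kept it. The log2 difference was -1.65 without cold array 2 of the liver label and -4.29 without cold array 1, and without all BAT arrays the adjusted p was 0.0978.

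Mup3 signals on the arrays labelled liver were 8268 and 5882 at room temperature, against 652 and 85.6 in the cold. The room temperature arrays were above both cold arrays, and cold array 2 was again the lower. The log2 difference was -4.79 (SE 0.66), a 27.6-fold fall (limma adjusted p = 0.00104), and it passed without any 1 array, with differences from -6.15 (without cold array 1) to -3.42 (without cold array 2). A fit of the 4 arrays alone ended the call (adjusted p = 0.392). Mup4 signals were 253 and 96.2 at room temperature, against 5.8 and 2.2 in the cold, where no array reached the detection score. Mup4 was therefore at least 6.92-fold lower, a bound set by the lowest detected signals and given with no test because the study's liver list was used to name its probe.

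Hepatocyte markers moved with the Mup probes on the arrays labelled liver. Of 12 markers tested there 9 fell, beside 1.8% of all probes, and 0 rose, with a median log2 difference of -5.79 beside 0.01 for all probes. Hpx, the plasma haem carrier, gave 13674 and 6795 at room temperature, against 131 and 13 in the cold, so that cold array 2, which carries the brown adipocyte and muscle signal, was the lower for Hpx, Mup2 and Mup3 alike. In BAT 5 of the 12 markers fell, beside 0.34% of all probes, and 0 rose (median -1.66). Hpx signals there were 293, 178 and 371 at room temperature, against 31.8, 33.5 and 56.7 in the cold. Under the WAT label 0 of the 12 passed in either direction (2 were higher at an unadjusted p under 0.05), and Hpx gave 16938, 17096 and 14912 at room temperature, against 16934, 16172 and 11069 in the cold. The part of hepatocyte RNA in the Mup differences was not tested.

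**Figure D2:**
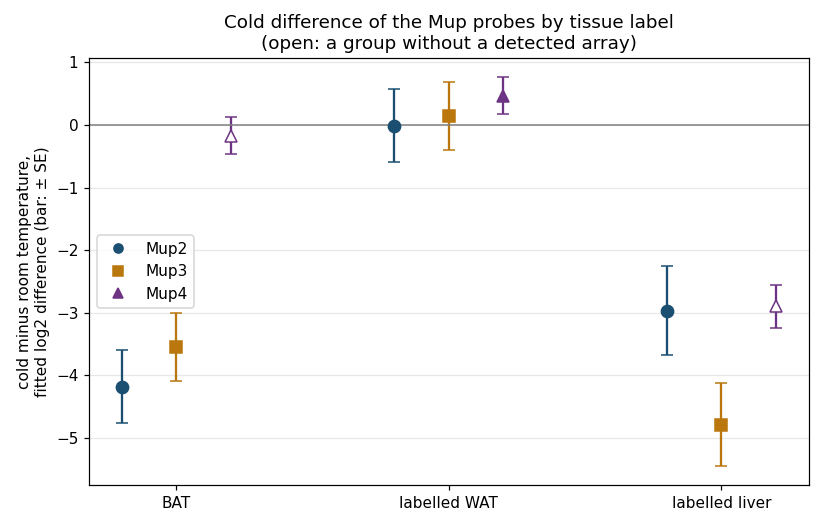
Fitted log2 difference between cold and room temperature (vertical axis, bars ± SE) for Mup2, Mup3 and Mup4 under the 3 tissue labels, with open points where at least 1 group had no detected array. Mup2 and Mup3 lie between -4.79 and -2.97 for BAT and labelled liver and between -0.01 and 0.14 for labelled WAT, and the BAT values are descriptive.

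The arrays labelled WAT and labelled liver were next set against each other at each temperature. At room temperature neither tested member passed, where 9.6% of all probes did. The log2 difference, labelled WAT minus labelled liver, was -0.19 for Mup2 (95% confidence interval -1.60 to 1.23, limma adjusted p = 0.936) and 0.29 for Mup3 (-1.03 to 1.60, adjusted p = 0.883). Both were higher in cold mice under the WAT label, as were 7.86% of all probes (3123 probes, and 10768 with scaling to the 75th percentile). The difference was 2.77 for Mup2 (SE 0.65, 6.83-fold, limma adjusted p = 0.00860) and 5.22 for Mup3 (SE 0.60, 37.2-fold, limma adjusted p = 4.15e-05). Without cold array 2 of the liver label the difference was 1.46 for Mup2 (adjusted p = 0.129) and 3.86 for Mup3, and without cold array 1 it was 4.09 for Mup2 and 6.58 for Mup3. Mup4, as a description, was 3.07-fold higher on labelled WAT at room temperature and at least 29.4-fold higher in cold mice.

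The cold differences under these 2 labels were compared directly, with a contrast added after the values were seen. For Mup3 the labelled liver difference was lower than the labelled WAT difference by -4.93 on the log2 scale (SE 0.85, limma adjusted p = 0.00899), and 1.22% of all probes passed in that direction. The value was -6.29 without cold array 1 of the liver label and -3.57 without cold array 2. The call ended without the BAT arrays (adjusted p = 0.0668) and without room temperature array 1 of the liver label (adjusted p = 0.0569). For Mup2 the corresponding value was -2.96 (SE 0.92, limma adjusted p = 0.224), and it was -4.28 without cold array 1 of the liver label (adjusted p = 0.00608) and -1.64 without cold array 2 (adjusted p = 0.516).

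The levels of each probe were ordered over the 6 groups, as a description. Mup2 was highest on labelled liver at room temperature (mean signal 21252 ± 1606, SD, n = 2), followed by labelled WAT in the cold (18484 ± 1303, n = 3) and at room temperature (18473 ± 1294, n = 3), BAT at room temperature (9664 ± 2600, n = 3), labelled liver in the cold (3767 ± 3890, n = 2) and BAT in the cold (628 ± 422, n = 3). The labelled WAT groups overlapped, as did labelled liver in the cold and BAT in the cold, whereas the signals of the other neighbours did not. The upper 3 groups lie at 81.4% to 100% of the highest signal on their arrays, so their order is not firm. For Mup3 the order was labelled WAT in the cold (9937 ± 472), labelled WAT at room temperature (8656 ± 946), labelled liver at room temperature (7075 ± 1688), BAT at room temperature (821 ± 292), labelled liver in the cold (369 ± 401) and BAT in the cold (56.5 ± 26.8). Neighbouring groups of Mup3 overlapped, except between labelled liver and BAT at room temperature and between labelled liver and BAT in the cold.

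Each probe was also set against its own mean on the arrays labelled WAT at room temperature, as a description, since the BAT values chose the members. On that scale Mup2 lay -0.92, -1.17 and -0.45 log2 units away on BAT arrays 1, 2 and 3 at room temperature. Mup3 lay at -3.25, -4.09 and -3.03 and the median of 12 hepatocyte markers at -5.24, -5.80 and -5.36. That median includes Alb and Fgg, whose probes stay near background and whose offsets are near 0. The 10 markers detected on every labelled WAT array at room temperature lay between -6.76 and -1.88. Among them Tdo2 was dim on those arrays (mean signal 63.1) and detected on no BAT array, so background limits how far below it can lie. Such offsets were not confined to the Mup probes: Apoa2 and Ttr lay at -2.02, -2.90 and -1.84 and at -3.11, -4.49 and -3.42. These genes were picked as the most like Mup2 over the same arrays, so a shared pattern follows from the choice. Mup2 is near the top of the signal scale on labelled WAT, so the size of its offsets may be understated.

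In the cold BAT arrays the Mup2 offsets were -6.18, -4.88 and -4.01 and the Mup3 offsets were -7.70, -6.78 and -6.53. The hepatocyte medians were -7.27, -7.36 and -6.89, where 4, 5 and 5 of the 12 markers reached the detection score. Cold array 1 had the lowest Mup2 and Mup3 offsets of the BAT arrays. On the cold arrays labelled liver Mup2 was at -1.46 and -4.10, Mup3 at -3.71 and -6.43 and the hepatocyte median at -5.67 and -7.29.

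**Figure D3:**
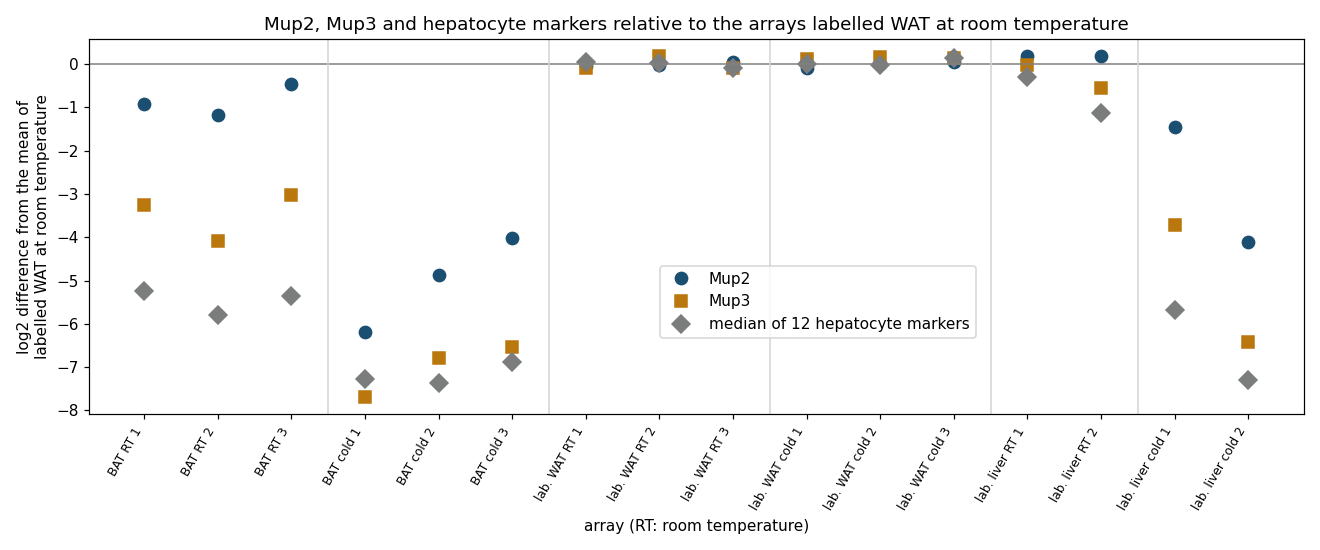
Log2 difference of Mup2, Mup3 and the median of 12 hepatocyte markers (vertical axis) from their own mean on labelled WAT at room temperature, for each of the 16 arrays. On BAT at room temperature Mup2 lies between -1.17 and -0.45, Mup3 between -4.09 and -3.03 and the hepatocyte median between -5.80 and -5.24.

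The genes most like Mup2 over the 16 arrays were liver-secreted or liver-enriched. Among 9839 genes detected on at least 3 arrays the highest Pearson r was that of Apoa2 (0.979), an apolipoprotein of high-density lipoprotein. It was followed by Ttr (0.949), the thyroxine and retinol-binding-protein carrier, Fga (0.896), a fibrinogen chain, Apoa1 (0.892), the main apolipoprotein of high-density lipoprotein, and Mat1a (0.882), the liver methionine adenosyltransferase. These correlations are descriptions, since all points share the same arrays and fall into 6 groups. Mean Apoa2 signals were 3744 in BAT at room temperature and 195 in the cold, 17561 and 17916 on labelled WAT, and 20069 and 1112 on labelled liver. Mean Ttr signals were 1124 and 59.7 in BAT, 13659 and 12847 on labelled WAT, and 13087 and 372 on labelled liver. Among the members r was 0.941 for Mup2 with Mup3, 0.890 for Mup3 with Mup4 and 0.700 for Mup2 with Mup4.

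**Figure D4:**
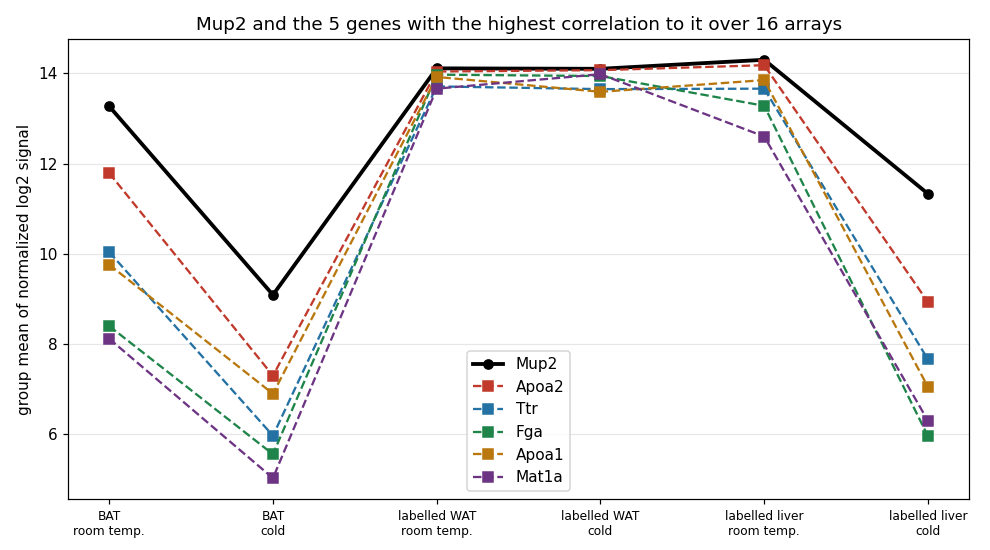
Group means of the normalized log2 signal (vertical axis) for Mup2 and the 5 genes with the highest correlation to it, over 6 groups. Mup2 falls from 13.27 to 9.09 in BAT and Apoa2 from 11.79 to 7.30, while on labelled WAT Mup2 is at 14.11 and 14.10 and Apoa2 at 14.04 and 14.07.

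Growth hormone signalling and liver transcription factors act upstream of hepatic Mup genes, and 14 of 17 listed genes were tested. Folds here come from the normalized log2 values, whose offset shrinks those of dim probes, and can be smaller than the ratio of the mean signals beside them. In BAT 0 rose and 0 fell (limma, adjusted p), and at an unadjusted p under 0.05, 0 were higher and 2 lower. The median log2 difference of the 14 was -0.11 beside 0.00 for all probes. The Stat5b, Nr3c1 and Onecut1 probes were detected on no array of BAT or labelled liver, so their differences were not measured there. Cux2 and Foxa2 had BAT means of at most 10.2. Ghr, the growth hormone receptor, had mean BAT signals of 1383 at room temperature, against 822 in the cold (log2 difference -0.74, SE 0.20, adjusted p = 0.162). Cebpa, a transcription factor of hepatocytes and adipocytes, had means of 4527 and 2884 (-0.64, SE 0.25, adjusted p = 0.442). Bcl6, a repressor that opposes STAT5, had means of 636 and 523 (-0.10, SE 0.74, adjusted p = 1.00). On labelled WAT 0 passed in either direction (0 higher and 1 lower unadjusted). On labelled liver 1 fell, beside 1.8% of all probes, and 0 rose: Hnf4a, a hepatocyte transcription factor, went from a mean of 577 to 9.8 (fitted fold 19.7, signal ratio 58.9, limma adjusted p = 1.42e-05).

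Other liver genes whose expression depends on the growth hormone pattern were tested for 13 of 15. In BAT 1 rose and 1 fell, beside 0.3% and 0.34% of all probes. At an unadjusted p under 0.05, 1 was higher and 4 lower, beside 1739 and 1708 of 39730 probes. The lower ones included Cyp4a12a (mean signal 67.4 to 2.83), Hsd3b5 (31 to -0.933) and Cyp7b1 (38.4 to -1.17), each detected on no cold BAT array. Elovl3, a fatty acid elongase that is also a cold-responsive gene of brown fat, rose from 15.4 to 104 (fitted fold 3.76, signal ratio 6.77, limma adjusted p = 0.00243). Cyp2d9, a male-biased steroid hydroxylase, fell from 170 to 12.8 (fitted fold 6.26, signal ratio 13.2, limma adjusted p = 0.0273), a call that ended when any 1 of 6 arrays was left out (adjusted p up to 0.117), namely room temperature arrays 1 and 3 and all 3 cold arrays of BAT or room temperature array 2 of the WAT label. On labelled WAT Hsd3b5, a steroid-metabolizing enzyme, fell from 4134 to 1060 (3.95-fold, limma adjusted p = 0.0296) and no other passed, beside 0.0302% of all probes. That call ended when any 1 of 9 arrays was left out (adjusted p up to 0.101): all 3 room temperature arrays and cold arrays 1 and 3 of the WAT label, and room temperature array 1 and all 3 cold arrays of BAT. Unadjusted, 2 genes of the list were higher and 2 lower on labelled WAT at p under 0.05, beside 1230 and 1234 of 39730 probes. On labelled liver 6 fell, beside 1.8% of all probes, and 0 rose. By fitted fold these were Cyp2d9 130-fold, Cyp4a12a 72.3-fold, Hsd3b5 70.9-fold, Cyp7b1 64.5-fold, Ugt2b1 18.5-fold and Slco1a1 at least 10.8-fold (limma adjusted p of at most 2.61e-05). Each tested gene of the list that did not pass there had a mean room temperature signal of at most 7, which leaves little room for a fall.

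Of 18 other lipocalins, the wider family of the Mup genes, 13 were tested. In BAT, where 0.34% of all probes passed as lower, Apom, a carrier of sphingosine phosphate on lipoproteins, fell at least 3.23-fold, from a mean of 84.7 to 1.43 (limma adjusted p = 0.0431), and the other 12 did not pass. This call ended when any 1 of 9 arrays was left out (adjusted p up to 0.168): room temperature arrays 1 and 3 and all 3 cold arrays of BAT, and all 3 room temperature arrays and cold array 2 of the WAT label. Orm1, an acute-phase lipocalin, had BAT means of 3579 and 3188 (log2 difference -0.17, SE 0.23, adjusted p = 0.954). Orm2 had 200 and 217, and Rbp4, the retinol carrier, had 185 and 261. At an unadjusted p under 0.05, 0 of the 13 were higher in BAT and 3 lower, beside 1739 and 1708 of 39730 probes. Apom was 1 of the 3, and C8g, with BAT means of 243 and 87.4, was another (log2 difference -1.34, SE 0.39, limma adjusted p = 0.218). On labelled WAT 0 of the 13 passed (0 also at an unadjusted p under 0.05). On labelled liver, where 1.8% of all probes passed as lower, 2 of the 13 did. Apom fell by a fitted 122-fold (limma adjusted p = 2.88e-06) and C8g, a complement subunit, fell by a fitted 82-fold (adjusted p = 4.72e-06), whereas Orm1 had means of 7548 and 7950 (adjusted p = 0.996).

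Of 8 markers of salivary and lachrymal glands only 2 were tested, and their summed signals were 242 to 308 in BAT at room temperature and 169 to 219 in the cold. A gland source of Mup RNA was therefore not tested.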

How the data were processed

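Members and gene lists were chosen with earlier results of these data known. RNA of BAT, WAT and liver was amplified and hybridized to Illumina MouseWG-6 arrays, and groups follow the sample titles. The deposited intensity values are linear, background-subtracted signals of 46643 probes (38% to 38.1% below 0), and the deposited detection score runs from 0 to 1 per probe and array. The authors also deposited a log2 value table, centred by them on each probe's median; flooring the signals at 5, taking log2 and centring reproduced it to within 2.54e-06. The authors worked in GeneSpring, and the step that made the signals is not given in the sources used here.

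With limma 3.58.1 under R 4.3.3, neqc applied normexp at an offset of 16 and quantile normalization. Testing covered the 39730 probes scoring 0.6 or more on 2 or more arrays. A limma model with a mean for each of 6 groups was fitted over 16 arrays, with Benjamini-Hochberg adjustment over all tested probes and a threshold of 0.05. A gene is its brightest tested probe. Where a group had no detected array, the fold is a bound, taking for each of its arrays the higher of the probe's own value and the lowest detected value. The number of arrays limits the precision, and 11915 to 17399 probes were detected per array. Replicates correlated at 0.953 to 0.987. In simulated data of the labelled liver contrast over 39730 probes, 50 changes were planted at each of 0.5, 1, 2 and 4 log2 units. Of those of 2 log2 units 45 were recovered, and 9 of the 128 calls over all sizes were false. This recovery may not hold for the Mup probes, since the log2 SD on cold labelled liver was 1.86 for Mup2 and 1.92 for Mup3.

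Named genes were the members, list genes that passed with up to 3 bright others, the 5 genes most like Mup2, and Hpx and Alb. Mup4 was named outside this rule, after its values were seen, from a list of the study made partly on the liver arrays; of that list's 931 entries 927 matched 1 probe, and of 700 named by both sources 652 carried the same symbol or a synonym. Of the tested probes 22268 had a symbol; 21294 of all probes had none and 0 had several. Promoters were aligned with Biopython 1.88. Alternatives changed background correction, scaling, filter, value table, samples, block and test, and left out each array in turn.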

Additional observations from a re-analysis of the deposited data

Results flagged for a closer look

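The cold difference of Mup3 differed between the arrays labelled liver and those labelled WAT. The value was -4.93 on the log2 scale (SE 0.85, limma adjusted p = 0.00899), labelled liver minus labelled WAT, and it was picked out because the difference itself passed a contrast added after the values were seen. Both cold arrays labelled liver (652 and 85.6) lay below both room temperature arrays (8268 and 5882), whereas the labelled WAT groups overlapped. The value was -6.29 without cold array 1 and -3.57 without cold array 2 of the liver label. The call ended without the BAT arrays (adjusted p = 0.0668) and without room temperature array 1 of the liver label (adjusted p = 0.0569). The summed hepatocyte signal was 48076 to 75522 and then 199 to 1537 on the same labelled liver arrays, and cold array 2 had a brown adipocyte sum of 29611 and a skeletal muscle sum of 17098, beside 3096 and 848 on cold array 1. The part of these in the difference was not tested.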

How the results depend on the processing

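The BAT median log2 difference of the 3 Mup probes, -3.55, is the Mup3 value, with Mup2 below it and Mup4, at background, above it. It kept its direction and size under every alternative run (-3.86 to -3.20 without any 1 array). The BAT values chose the members, so this is a description and no support for the fall, and the methods' t-test was not run on it. No Mup probe passed on labelled WAT in the cold, or for labelled WAT against labelled liver at room temperature, under any alternative; Mup2 on labelled WAT turned sign at 0.00 (75th percentile scaling, the authors' value table and the methods' t-test with and without adjustment) (-0.04 to 0.03 without any 1 array), and at 0.02 and 0.03 without room temperature array 3 or cold array 1 of that label, with unadjusted or adjusted p of at least 0.992.

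On labelled liver 2 Mup probes passed in the cold; 1 passed with normexp offset 50, no background correction, no filter, the value table or without the BAT arrays (added after seeing the data), 0 with only the groups compared or with the methods' t-test before or after Benjamini-Hochberg adjustment (the latter added after seeing the data), and 1 to 2 without any 1 array. For labelled WAT against labelled liver in the cold the count of 2 became 1 with only the groups compared or the methods' t-test, 0 after its adjustment, and 1 to 2 without any 1 array. Only 2 against 2 arrays enter the labelled liver comparison, so a fit on them alone has few degrees of freedom.

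Room temperature and cold arrays came from separate groups of mice, so replicate numbers cannot pair them. Across temperature, same-numbered arrays of BAT and labelled WAT had correlations of deviations from -0.07 to 0.10, and 1 of 6 correlated best with its own number. Sharing of mice between tissues was not checked. The replicate block groups arrays by number over both temperatures, so it does not represent mice. With the replicate block 1 Mup probe passed on labelled liver (Mup2 limma adjusted p = 0.0638) and 0 genes of the growth hormone pattern list passed on labelled WAT, in place of 2 and 1.

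Of the regulator list, the BAT count of 0 was 1 without the arrays labelled liver (added after seeing the data) and 0 to 1 without any 1 array, and the labelled liver count of 1 was 0 with only the groups compared and after adjustment of the t-test. Of the growth hormone pattern list, the BAT count of 2 was 1 with offset 50, 5 with the t-test, 0 after its adjustment and 1 to 3 without any 1 array; the labelled WAT count of 1 was 0 with no background correction, the value table, only the groups compared, without the BAT arrays and after adjustment, 2 with the t-test and 0 to 2 without any 1 array; the labelled liver count of 6 was 0 with only the groups compared and after adjustment. Of the lipocalins, the BAT count of 1 was 0 with offset 50, no filter, only the groups compared and after adjustment, 2 with the t-test and 0 to 1 without any 1 array; the labelled liver count of 2 was 0 with only the groups compared and after adjustment, and 2 to 4 without any 1 array. Scaling to the 75th percentile moved the median of all probes by at most 0.06 for cold against room temperature within each label. For labelled WAT against labelled liver it took the probes called higher from 1815 to 2798 at room temperature. In the cold it took them from 3123 to 10768. The causes were not tested.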

Other observations

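The genes most like the other measured members were also liver genes. For Mup3 they were Ttr (Pearson r 0.995 over 16 arrays), Fga (0.990), Apoc4 (0.987), Mat1a (0.986) and Apoa1 (0.980). For Mup4, which was detected only on labelled WAT and on labelled liver at room temperature, they were Pbld1 (0.998), Glyctk (0.997), Baat, a bile acid conjugating enzyme (0.997), Apon (0.996) and Slc38a4, an amino acid transporter (0.996). These values are descriptions over arrays that fall into 6 groups.

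Of 13 tested genes of the growth hormone pattern list, 4 were higher and 0 lower on labelled WAT than on labelled liver at room temperature, and 8 were higher and 0 lower in the cold (limma, Benjamini-Hochberg). Over all probes 4.57% were higher at room temperature and 7.86% in the cold. One array labelled WAT, cold array 3, had a summed exocrine pancreas signal of 74074 over 6 markers, while the other 15 arrays had at most 8131. Its Mup2 signal was 19948 and its Mup3 signal 10101, beside 17155 to 19742 and 7839 to 10305 on the other arrays of that label.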
